A study of Homo sapiens with 42 samples.

Results

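Long non-coding RNA and antisense RNA genes were followed across all 8 splicing comparisons of a study in multiple myeloma cells, cells of a cancer of antibody-secreting plasma cells. Members were taken by gene symbol: those starting with LINC, those ending in -AS, -AS1, -AS2, -AS3, -IT1 or -DT, and FIRRE, with small nucleolar RNA host genes of the SNHG series left out. The rule found 423 of 11162 genes, with 2336 of 79530 splicing events. Of these genes, 113 carried LINC symbols, 236 were named as antisense and 73 as divergent transcripts, which start next to a coding gene and run the other way. The last was FIRRE, with 25 events. In GENCODE release 29, 422 of the 423 genes were found, 222 of them annotated as antisense, 132 as lincRNA, 52 as processed transcript and 2 as protein-coding, and 271 overlapped a protein-coding gene on the opposite strand.

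Splicing was profiled in MM.1S cells and INA-6 cells, both of established human myeloma lines, in 42 RNA sequencing libraries that formed 14 groups of 3. Interleukin-6 (IL-6), on which many myeloma cells depend for growth, was withheld from or given to both lines for 24 hours, and these groups were compared. The other groups were Cas9-expressing cells with a lentiviral guide RNA against EGFP as control (sgEGFP), POU2AF1, ELL2, SRSF1 or HNRNPL, all given IL-6 (24 hours in MM.1S, a time not given on the INA-6 labels) after 2 days of puromycin selection. POU2AF1 and ELL2 were targeted in both lines, and SRSF1 and HNRNPL in MM.1S. In MM.1S the sgPOU2AF1 and sgELL2 groups each had sgEGFP libraries of their own, sgSRSF1 and sgHNRNPL shared 3 sgEGFP libraries, and in INA-6 sgPOU2AF1 and sgELL2 shared 3. The labels call the guide RNA cells knockdown cells, and percent spliced in cannot show whether the targeted gene's level fell. In the sgSRSF1 and sgHNRNPL comparisons of MM.1S, the defining plasma cell markers were all among the genes with listed events (10 of 10). This held for 1 of 3 T cell, 0 of 3 myeloid and 0 of 3 fibroblast markers. INA-6 and the other comparisons were not looked up.

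Long non-coding RNAs are transcribed by RNA polymerase II, spliced and mostly kept in the nucleus, and their exons, free of a reading frame, are often joined in many combinations. Antisense and divergent transcripts share a locus with a coding gene. SRSF1 is an SR protein that binds purine-rich RNA, GGAGA and GAAGA among its known motifs, and generally promotes the use of nearby exons. HNRNPL binds CA-rich RNA and can enhance or repress splicing. POU2AF1 is a coactivator of OCT transcription factors in B cells, and ELL2 is an elongation factor that supports immunoglobulin mRNA processing in plasma cells.

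Each event has a percent spliced in (PSI) in each library. For exons this is the share of transcripts that include the exon and for introns the share that retain it. For alternative 3' splice sites (acceptors) and 5' splice sites (donors), the deposited coordinates can span other exons, so a higher PSI is not translated here into the use of a given site. Differences are in PSI points, treated minus control. An event was called where the deposited, unadjusted p was under 0.05 and the difference at least 10 points. Read numbers per event were not given, so depth is unknown, and where a library has no value the other 2 of its group are given. Separate cultures are not stated for the 3 libraries of a group, so p-values measure the spread between these libraries only. The libraries are strand-specific per the labels, but whether the splicing caller used strand is not stated, so reads of overlapping antisense genes cannot be told apart.

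The sequences below belong to events that the results turn on and show the exons as spliced RNA would carry them, written as DNA, 5' to 3' on the strand of the transcript, from GENCODE release 29 transcripts on GRCh38. Capitals mark GGAGA and GAAGA, searched on the transcript strand only.
MAPKAPK5-AS1 exon, chr12:111841327-111841470, minus strand: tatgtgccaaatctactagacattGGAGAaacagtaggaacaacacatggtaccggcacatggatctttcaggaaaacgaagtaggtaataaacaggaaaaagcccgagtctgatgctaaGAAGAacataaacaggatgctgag
PSMA3-AS1 exon, chr14:58285591-58285756, minus strand: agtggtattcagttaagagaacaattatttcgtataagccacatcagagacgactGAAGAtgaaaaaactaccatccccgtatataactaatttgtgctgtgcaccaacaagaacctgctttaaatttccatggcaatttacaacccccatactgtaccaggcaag
TMEM44-AS1 exon, chr3:194589474-194589626, plus strand: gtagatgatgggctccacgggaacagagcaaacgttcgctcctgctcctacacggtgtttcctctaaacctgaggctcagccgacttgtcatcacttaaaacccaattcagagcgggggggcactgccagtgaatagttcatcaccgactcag
GABPB1-AS1 donor event target, chr15:50355546-50355765, plus strand: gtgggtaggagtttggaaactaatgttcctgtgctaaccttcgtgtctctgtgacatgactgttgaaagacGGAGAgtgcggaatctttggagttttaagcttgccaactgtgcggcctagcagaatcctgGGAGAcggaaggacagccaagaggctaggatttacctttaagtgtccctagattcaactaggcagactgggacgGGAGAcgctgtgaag
PTOV1-AS2 exon, chr19:49858554-49858626, minus strand: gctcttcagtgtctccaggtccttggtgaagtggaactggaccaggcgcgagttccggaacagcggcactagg
FIRRE exon, chrX:131804972-131805037, minus strand: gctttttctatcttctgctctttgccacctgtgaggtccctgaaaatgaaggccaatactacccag
LINC00511 exon, chr17:72431128-72431224, minus strand: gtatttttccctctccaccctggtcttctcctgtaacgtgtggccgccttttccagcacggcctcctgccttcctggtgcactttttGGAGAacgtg
LINC02820 exon, chr12:85318958-85318979, plus strand: gcatcagctatcaaaacttatg
The MAPKAPK5-AS1 exon held 1 GGAGA and 1 GAAGA, the PSMA3-AS1 exon 1 GAAGA, and the GABPB1-AS1 target 3 GGAGA. The TMEM44-AS1 exon and the PTOV1-AS2 exon, also called with sgSRSF1, held neither. The printed sequences are a choice among the events called with sgSRSF1, so no share of events with a motif is read from them. Among 13294 single exons of all genes in these tables that match the annotation exactly, 22.5% held GGAGA and 26.6% GAAGA, and among the 177 of the long non-coding genes 20.3% and 27.7%. For exons within 10% of its length the shares were 25.4% and 28.7% for the MAPKAPK5-AS1 exon, 27.8% and 31.4% for the PSMA3-AS1 exon, and 36.4% and 38.0% at the length of the GABPB1-AS1 target. A match is a description of the letters and no binding was measured.

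A second set shows pairs of acceptors 3 nt apart, each printed from the first base of the longer exon form. Capitals mark the 3 bases that the longer form carries and the shorter one lacks. The LINC02362 event is tied to a transcript start.
LINC03034 acceptor, chr15:31223683-31223712, minus strand: AAGgggaccacaacagactcgacaggatcc
TMEM161B-DT acceptor, chr5:88287436-88287465, plus strand: AAGagaagacatggagaagaggagggagta
LINC01128 acceptor, chr1:850178-850207, plus strand: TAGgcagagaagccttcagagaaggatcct
LINC02362 acceptor, chr4:184365617-184365646, minus strand: AAGgcagcacaggccttgctgtttgcccat
In all 4, the 3 bases end in AG, the dinucleotide that closes an intron. This held for 15 of 15 such stretches of long non-coding genes with a sequence in the sgSRSF1 table, and for 1006 of 1010 over all genes. Since AG closes an intron, this follows from the type of event and is no trait of these genes.

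Called events made up a larger share of the events of long non-coding genes than of all events in each of the 8 comparisons. In the complete tables, 132 of 1319 tested events (10.0%) were called with sgSRSF1, against 5.75% of all events, and 60 of 1534 (3.91%) with sgHNRNPL, against 1.81%. In the other 6 tables every p given is under 0.05, and those of INA-6 also list events with no p, which were not counted as tested. The share there says how many events with a p reached 10 points: with IL-6, 32 of 116 in MM.1S (27.6% against 13.9%) and 61 of 148 in INA-6 (41.2% against 12.2%), with sgPOU2AF1 26 of 95 in MM.1S (27.4% against 10.2%) and 62 of 187 in INA-6 (33.2% against 10.1%), and with sgELL2 28 of 85 in MM.1S (32.9% against 11%) and 33 of 116 in INA-6 (28.4% against 10.2%). In every called event the values of the 2 groups did not overlap, in these genes as in all others (100% in each of the 8 comparisons). Where groups of a called event are described below as apart, this adds no support beyond the call.

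**Figure D1:**
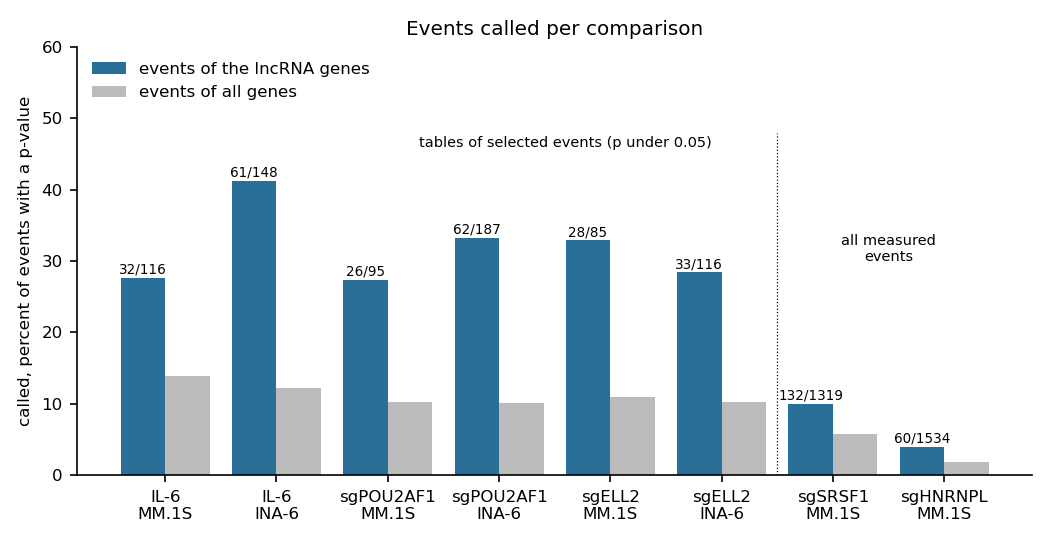
Share of tested events called (percent, y axis) for long non-coding and antisense RNA genes and for all events in each of the 8 comparisons, with the number of called events of these genes on the bars. The share of these genes is the higher of the pair in all 8, from 3.91% with sgHNRNPL to 41.2% with IL-6 in INA-6.

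The spread between libraries was also larger for these genes. In the sgSRSF1 table the median SD of an event was 3.46 points in the control and 3.3 in the sgSRSF1 libraries, against 1.44 and 1.44 over all events, and mean PSI lay between 5 and 95% in 69.2% of events against 49.2%. The share with p under 0.05, with no demand on size, was 15.5% against 16.4% with sgSRSF1 and 8.74% against 7.33% with sgHNRNPL. Among events with a control mean from 20 to 80%, it was 20.2% against 21.8% with sgSRSF1, with a median control SD of 6.21 against 4.1 points. Library values were missing in 1.07% of control and 2.66% of sgSRSF1 values of these genes, against 0.527% and 0.748% over all events. The part of this spread in the higher shares was not tested. The distance of each library from the other 2 of its group was taken in the complete tables, over events with a mean PSI from 20 to 80%. Its median lay between 3.89 and 4.16 points over all genes and between 5.73 and 6.67 for the long non-coding ones. By this measure no library stood apart. Missing values of these genes were uneven among the sgSRSF1 libraries (4.34, 2.38 and 1.26%).

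With sgSRSF1, changes fell in 59 long non-coding genes and more often went down: 46 events were higher and 86 lower (34.8% higher, against 32.0% of all called events), where 1.84% of all tested events were called higher and 3.91% lower. Runs of several exons made the largest block, 26 lower and 4 higher (572 and 120 over all genes), and single exons gave 14 lower and 8 higher (817 and 304). Retained introns ran the other way, with 4 lower and 10 higher (35 and 118 over all genes). Over all genes these types went the same way, so the directions are not particular to the long non-coding ones. Acceptors split into 11 lower and 10 higher (226 and 125) and donors into 12 lower and 3 higher (206 and 100). By limma on logit PSI with Benjamini-Hochberg adjustment over all 50150 events, 88 of 1274 events in 41 genes passed at 10 points (6.91% against 4.11%), 25 higher and 63 lower, against 1.18% and 2.93% of all events. With 20 points in place of 10 the deposited rule gave 52 events, 26 higher and 26 lower, so the excess of lower events lies in differences under 20 points. Many events are overlapping readings of the same exons, and the 132 called events hold 120 distinct sets of values. Leaving out any single library of either group left 31 to 41 limma calls in place of 88.

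**Figure D2:**
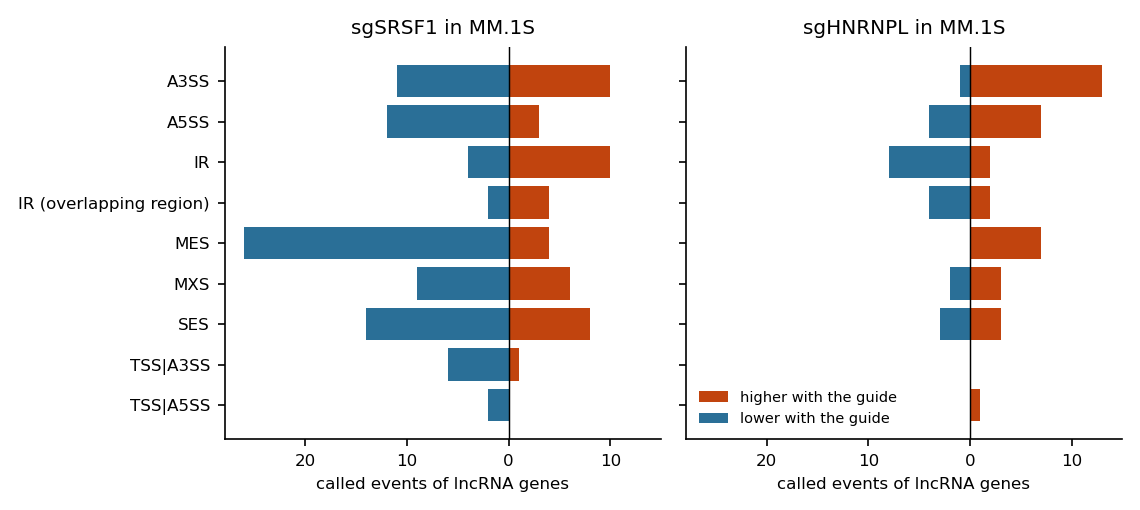
Number of called events of long non-coding and antisense RNA genes (x axis) by event type (y axis), higher (red, right) and lower (blue, left) PSI with sgSRSF1 and with sgHNRNPL. Runs of several exons are mostly lower with sgSRSF1 (26 lower, 4 higher), and acceptors mostly higher with sgHNRNPL (13 higher, 1 lower).

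The largest difference was at an acceptor of LINC01138, a long intergenic RNA gene on chromosome 1 (target chr1:148433644-148434561). Its PSI was 90.9 and 90.0% in the 2 control libraries with a value and 20.8, 22.2 and 20% in the sgSRSF1 libraries. The difference was -69.4 points (logit difference -5.16 ± 0.19 SE, limma adjusted p = 0.00326). With sgHNRNPL the same event stood at 35.9, 45.9 and 44.0%, also below both controls (-48.5 points, limma adjusted p = 0.0291). The sgHNRNPL difference passed in 0 of the 6 fits that leave out 1 library.

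ASB16-AS1, antisense to the ankyrin repeat gene ASB16, had acceptor events that changed in opposite directions. At the target chr17:44176637-44177816 its PSI was 53.0, 53.5 and 63.0% in controls and 16.7, 16.4 and 12.2% with sgSRSF1 (limma adjusted p = 0.00727). At the neighbouring target chr17:44177817-44181431, chosen after its values were seen, it went from 13.6, 8.45 and 9.26% to 48.3, 50.8 and 55.1% (limma adjusted p = 0.00627). The first fell and the second rose in every library, with wide gaps between the groups. With sgHNRNPL the first stood at 59.6, 63.4 and 56.2%, overlapping the controls.

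MAPKAPK5-AS1 is named for the neighbouring gene of the kinase MAPKAPK5, overlaps it on the opposite strand in the annotation, and had 7 called events with sgSRSF1. The 144-nt exon printed above was included in 48.7, 54.1 and 56.7% of transcripts in controls and in 17.2, 19.7 and 17.5% with sgSRSF1 (limma adjusted p = 0.00627). Every sgSRSF1 library lay below every control library, with a wide gap. A donor event with a 21-nt target upstream of it (chr12:111841684-111841704) rose from 31.7% ± 4.7 to 66.4% ± 1.53 (SD, n = 3, limma adjusted p = 0.00961), and the 130-nt intron chr12:111840004-111840133 was retained in 29.6% ± 1.98 of transcripts in controls and 14.2% ± 1.18 with sgSRSF1 (limma adjusted p = 0.0155). With sgHNRNPL the exon was at 47.1, 36.1 and 53.1%, which overlaps the controls.

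Other exons rose. The 153-nt TMEM44-AS1 exon was included in 25.5, 28.9 and 23.4% of control transcripts and in 70.0 and 63.6% in the 2 sgSRSF1 libraries with a value (limma adjusted p = 0.0139). The 166-nt exon of PSMA3-AS1, antisense to a proteasome subunit gene, went from 22.2, 23.4 and 29.2% to 47.0, 42.1 and 50.4% (limma adjusted p = 0.0274). In both, every sgSRSF1 library was above every control. A 1137-nt intron of LINC00667 (chr18:5239050-5240186) was retained in 44.7, 50 and 40.5% of control transcripts and in 76.9, 75.0 and 67.9% with sgSRSF1 (limma adjusted p = 0.0208).

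Acceptors 3 nt apart were called in 4 of 19 tested events of these genes with sgSRSF1 (21.1%), and in 37 of 1065 over all genes (3.47%). These counts take in events tied to a transcript start, such as those of LINC01480 and PCED1B-AS1. The PCED1B-AS1 event has values identical to those of longer targets. The event at the 3 printed bases of LINC03034 stood at 61.9, 77.3 and 75.0% in controls and 30, 27.3 and 17.8% with sgSRSF1 (limma adjusted p = 0.0177). The 242-nt LINC03034 exon that starts there, chosen after its values were seen, fell from 86.7% ± 4.78 to 46.7% ± 12.8 (SD, n = 3, limma adjusted p = 0.0295). The TMEM161B-DT acceptor moved the other way, from 30, 18.5 and 20.2% to 56.4, 53.2 and 67.5% (limma adjusted p = 0.0229). With sgHNRNPL, 1 of 21 such acceptors was called (4.76%), against 16 of 1095 over all genes (1.46%).

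Further limma calls with sgSRSF1 among the named events were an acceptor of LINC01399, from 66.0% ± 9.66 to 18.4% ± 2.93 (adjusted p = 0.0119), and mutually exclusive exons of GARS1-DT, divergent to a glycyl-tRNA synthetase gene, from 87.9% ± 5.66 to 46.6% ± 12.6 (adjusted p = 0.0279). The donor event of GABPB1-AS1 whose target is printed above, antisense to a subunit gene of the transcription factor GABP, fell from 72.0% ± 4.14 to 42.2% ± 6.78 (SD, n = 3, limma adjusted p = 0.0231). Retained introns of LINC00869 (13.8% ± 2.48 to 35.1% ± 8.53, adjusted p = 0.0406) and WARS2-AS1 (20.9% ± 3.78 in 2 libraries to 45.0% ± 5.0, adjusted p = 0.0433) rose. FIRRE, an X-linked nuclear RNA that takes part in chromatin organisation, had an acceptor at 19.0, 5.56 and 22.2% in controls and 40, 63.2 and 57.1% with sgSRSF1, which did not pass (limma adjusted p = 0.074). Among all named events with a limma p, 26 passed, and 10 to 12 passed with any 1 library left out. Of the 26, 7 passed in all 6 such fits. They were those of ASB16-AS1 (first target), LINC01138 and LINC01399, the MAPKAPK5-AS1 exon and 3 MAPKAPK5-AS1 donor events. Of these donor events, 2 carry identical values. LINC01138 has 2 control values, so without either the lone control was assumed to vary like the rest. Of the 26, 6 passed in none of the 6 fits: the WARS2-AS1 intron, an intron of LINC02610, a 329-nt intron of MAPKAPK5-AS1, an acceptor event of IQCH-AS1 and both of ENTPD1-AS1.

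Overlapping exon runs of PCBP1-AS1 and PCED1B-AS1, chosen after their values were seen, gave the most called events. A 78-nt PCED1B-AS1 exon (chr12:47206511-47206588) was included in 36.3, 37.9 and 32.5% of control and 16.7, 16.5 and 15.8% of sgSRSF1 transcripts (limma adjusted p = 0.0119). Runs that start with the 181-nt PCBP1-AS1 exon chr2:70083507-70083687 were at 16.4, 18.8 and 18.1% in controls and 7.07, 5.76 and 8.13% with sgSRSF1 in 1 such reading (limma adjusted p = 0.0168). Both fell in every library.

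With sgHNRNPL, 36 long non-coding genes had called events, 38 higher and 22 lower, against 1.12% and 0.686% of all tested events, and the share of called events that were higher was 63.3% against 62.1% over all events. Acceptors (13 higher, 1 lower) and exon runs (7 higher, 0 lower) were mostly higher, and retained introns mostly lower (2 higher, 8 lower). Over all genes the directions were the same, with 121 acceptors higher and 44 lower, 125 exon runs higher and 62 lower, and 21 introns higher and 46 lower. By limma, 5 of 1474 events in 4 genes passed (0.339% against 0.234%), 2 higher and 3 lower, against 0.189% and 0.0443% of all events. Leaving out any 1 library left 0 to 4.

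A donor event of LINC02362 (target chr4:184377002-184382134) was listed at 0 in all 3 controls and at 20.5, 25 and 35.3% with sgHNRNPL (limma adjusted p = 0.00857). Clipping set all 3 control values to 1%, so they show no spread in this fit. The LINC02362 event passed in 2 of the 6 fits that leave out 1 library. Mutually exclusive exons of TMEM161B-DT (chr5:88410073-88410194), chosen after their values were seen, went from 9.87, 14.4 and 9.8% to 0.676, 0.326 and 1.6% (limma adjusted p = 0.0245). In both events the groups were fully separate.

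The other large differences did not pass limma over all events. PDK1-AS1, antisense to a pyruvate dehydrogenase kinase gene, had an acceptor at 8.11, 0.0 and 2.38% in controls and 46.9, 48.4 and 38.2% with sgHNRNPL (limma adjusted p = 0.11). BDNF-AS, antisense to the neurotrophin gene BDNF, had a 3-nt acceptor event at 0.0 and 7.69% in 2 controls and 37.5, 45.8 and 33.3% with sgHNRNPL (limma adjusted p = 0.224). An intron of TP73-AS1, antisense to the p53 family gene TP73, stood at 50, 47.6 and 59.3% and at 27.6, 22.9 and 27.6% (limma adjusted p = 0.0949). Each of these 3 had control and sgHNRNPL values apart. A single exon of LINC02987 had means of 56.8% ± 12.2 and 93.5% ± 5.74 (limma adjusted p = 0.253), and an overlapping intron of FMNL1-DT, divergent to a formin gene, 62.7% ± 4.23 and 31.1% ± 7.99 (SD, n = 3, limma adjusted p = 0.117).

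Because sgSRSF1 and sgHNRNPL share their controls, they were compared directly. Of 1150 events of these genes listed in both tables and tested, 120 in 52 genes differed (limma adjusted p under 0.05 and 10 points), which is 10.4% against 5.76% of all events. PSI was higher with sgSRSF1 in 31 and lower in 89. The same split over all events was not computed. Many of the lower events are overlapping readings of exons of PCBP1-AS1, PCED1B-AS1 and TMEM161B-DT. The split is therefore not read as a trait of these genes. ASB16-AS1 stood at 15.1% ± 2.48 with sgSRSF1 and 59.7% ± 3.56 with sgHNRNPL at its first acceptor target (adjusted p = 0.00058, limma). The LINC03034 acceptor was at 25% ± 6.42 and 79.7% ± 5.09 (adjusted p = 0.00188, limma), and the LINC00667 intron, 73.3% ± 4.78 and 27.1% ± 7.44 (adjusted p = 0.00209, limma), with the control between them at 45.1% ± 4.74. An acceptor of ENTPD1-AS1, antisense to the gene of the ectonucleotidase CD39, was likewise on either side of the control: 28.5% ± 2.05 with sgSRSF1, 44.2% ± 4.41 in controls and 61.1% ± 5.08 with sgHNRNPL (SD, n = 3, limma adjusted p = 0.00179 for the direct difference). Against the controls, the sgHNRNPL difference did not pass limma for the LINC00667 intron (adjusted p = 0.304) or the ENTPD1-AS1 acceptor (adjusted p = 0.233). An exon run of LINC00960, chosen after its values were seen, was at 99.6% ± 0.77 with sgSRSF1 and 65.6% ± 15.4 with sgHNRNPL (limma adjusted p = 0.000808).

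**Figure D3:**
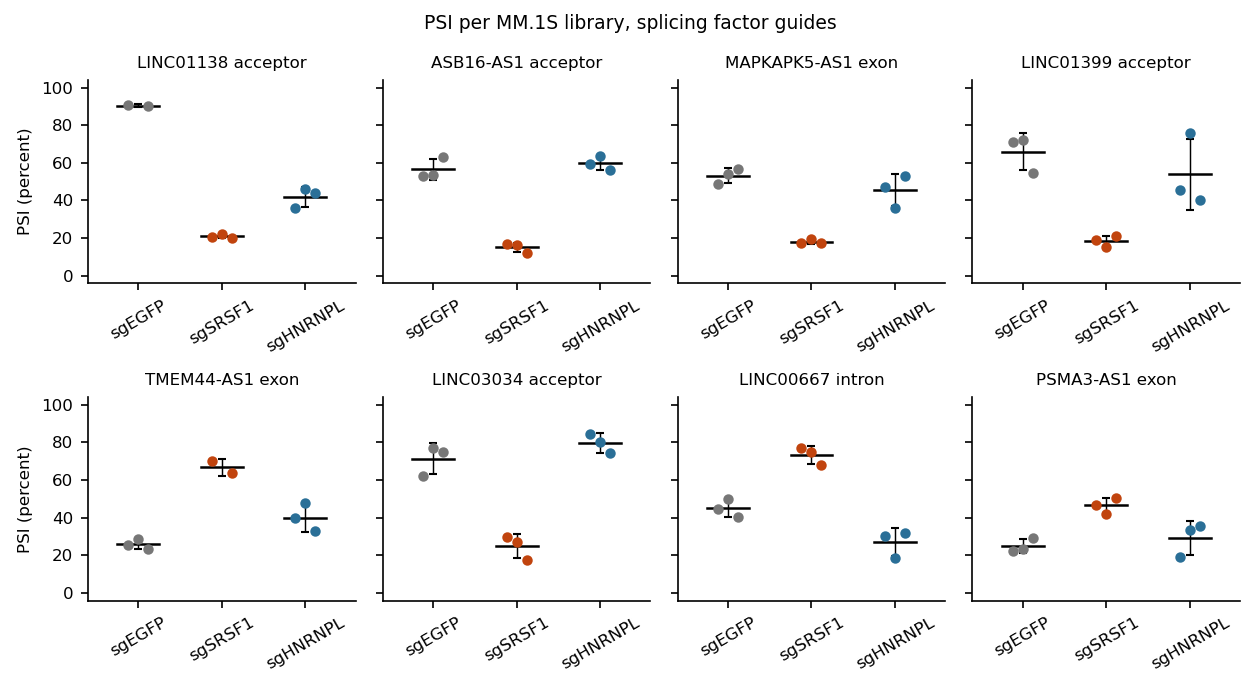
PSI (percent, y axis) of 8 events of long non-coding and antisense RNA genes in the sgEGFP, sgSRSF1 and sgHNRNPL libraries of MM.1S. Points are libraries, bars means and whiskers SD. All 8 events were called with sgSRSF1, so its libraries stand apart from the controls as in every called event. The LINC00667 intron moves to opposite sides of the control, where the sgHNRNPL difference did not pass limma (adjusted p = 0.304).

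With IL-6, PSI of long non-coding genes was more often higher in MM.1S, in 23 of 32 called events higher (71.9%), against 34.5% of all called events, in 23 genes. Over all events with a p, 4.81% were called higher and 9.12% lower. At 20 points the split was 5 higher and 5 lower. Over all genes, single exons (69 higher, 220 lower) and exon runs (18 and 115) fell more often. The long non-coding genes had 3 called single exons and 0 called exon runs. Their acceptors gave 5 higher and 1 lower (46 and 25 over all genes), and retained introns 3 and 2 (33 and 20). The mix of event types thus differed, and its part in the gap in direction was not tested. In INA-6, 32 called events of these genes were higher and 29 lower, in 42 genes, against 6.3% and 5.92% of all events with a p. A 140-nt intron of WARS2-AS1, antisense to a mitochondrial tryptophanyl-tRNA synthetase gene, was retained in 15, 15.8 and 13% of MM.1S transcripts without IL-6 and in 56.5, 40.9 and 48.0% with it, the largest rise. An acceptor of ZEB1-AS1, antisense to a transcription factor gene of epithelial-mesenchymal transition, went from 31.2, 35.3 and 38.5% to 62.5 and 61.5% in 2 libraries. A donor event of LINC-PINT, a p53-induced RNA, went from 3.09, 1.22 and 1.16% to 10.1, 10.5 and 15.3%. In all 3, the groups with and without IL-6 were apart.

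Falls with IL-6 in MM.1S included the printed 3-nt acceptor event of LINC02362, tied to a transcript start, at 94.7, 84.2 and 92.9% without and 63.6, 66.7 and 70.0% with IL-6. A 93-nt exon of CNPY2-AS1 was at 83.0, 66.0 and 84.0% without and 60.5, 51.1 and 53.4% with IL-6. In INA-6, a donor event of HILPDA-AS1 had the largest rise, from 43.8 and 36.4% to 78.6, 81.8 and 61.9%. The 73-nt PTOV1-AS2 exon rose from 55.6, 59.6 and 66.7% to 84.0, 95.2 and 75.8%, and the 66-nt FIRRE exon read as a single exon fell from 53.3, 48.9 and 40.9% to 31.7 and 31.0% in 2 libraries. A 158-nt exon of LINC00880 fell from 51.7 and 54.5% to 35.0, 24.1 and 22.6%. None of these groups overlapped.

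PINK1-AS, antisense to the gene of the mitochondrial kinase PINK1, had the 1 event of these genes called with IL-6 in both lines, in opposite directions. The overlapping intron chr1:20648633-20648994 was retained in 28.8, 22.7 and 31.0% of MM.1S transcripts without IL-6 and 45.2, 59.4 and 51.4% with it. In INA-6 it was retained in 34.4, 37.4 and 38.6% without and 25.9, 22.8 and 25.7% with IL-6. The difference between the responses was -2.35 ± 0.29 on the logit scale, INA-6 minus MM.1S (limma interaction, adjusted p = 0.000131 over the 615 events tested in both lines, of which 15.9% passed with 10 points). Events entered this test only if both tables listed them, 4 for these genes. The LINC-PINT donor event had responses of 10.2 points in MM.1S and 8.99 in INA-6 (limma interaction adjusted p = 0.372), and the 166-nt PSMA3-AS1 exon 8.41 and 7.0 points (limma interaction adjusted p = 0.852).

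A PCBP1-AS1 exon, chosen after its values were seen, was higher with IL-6 in both lines in readings that differ by its end. The 197-nt form went from 23.5, 25.8 and 32.4% to 44.7, 36.1 and 42.6% in MM.1S, and the 255-nt form from 27.9, 29.3 and 25% to 37.5, 43.4 and 41.2% in INA-6. Neither pair of groups overlapped.

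With sgPOU2AF1, 23 of these genes had called events in MM.1S (12 higher, 14 lower) and 44 in INA-6 (37 higher, 25 lower). No event was called in both, but only 8 events of these genes were listed for both lines. Shared calls over all genes were not counted, so their absence here is not read as a difference between the lines. Over all events with a p, 5.66% were called higher and 4.58% lower in MM.1S, and 5.32% and 4.82% in INA-6. In MM.1S an acceptor of EP300-AS1, antisense to an acetyltransferase gene, was at 12.5, 18.2 and 21.4% in controls and 61.5, 40 and 68.8% with sgPOU2AF1. The overlapping intron chr17:45221647-45221907 of FMNL1-DT fell from 77.3, 75.4 and 73.7% to 46.2, 50 and 54.1%, and the 73-nt PTOV1-AS2 exon from 74.8, 77.7 and 81.6% to 54.8, 64.2 and 68.1%. In each the groups were apart. In INA-6 a donor event of ALOX12-AS1, antisense to a lipoxygenase gene, fell from 55.0, 66.7 and 47.1% to 35.0, 31.8 and 21.4%. LINC00511 moved at different exons in different directions: the printed 97-nt exon rose from 35.4, 26.4 and 34.9% to 45.1, 48.6 and 44.9%, while a 172-nt exon (chr17:72586654-72586825) read as a single exon fell from 12.5, 17.9 and 16.3% to 4.96, 3.9 and 5.11%. Introns of GABPB1-AS1 were retained more, from 51.9, 47.5 and 50% to 69.8, 60 and 61.8% for the 554-nt one. With IL-6 in the same line, a 334-nt intron of GABPB1-AS1 with the same 3' end was retained less, at 47.7, 46 and 41.2% without and 31.7, 32.4 and 34.1% with IL-6.

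With sgELL2, 23 genes had called events in MM.1S (13 higher, 15 lower) and 24 in INA-6 (21 higher, 12 lower). Again no event was called in both lines, where only 1 event of these genes was listed for both, so this too is not read as a difference. Of all events with a p, 5.28% were called higher and 5.7% lower in MM.1S, and 5.59% and 4.56% in INA-6. In MM.1S a 93-nt exon of ITGB8-AS1, antisense to an integrin subunit gene, fell from 60.3, 56.8 and 63.0% to 45.9, 42.0 and 37.7%, and a donor event of LINC01353 from 41.7, 30 and 50% to 13.3, 8.33 and 26.7%. The groups were apart in both. In INA-6 a donor event tied to a transcript start of NOP14-AS1 rose from 28.6, 11.8 and 7.69% to 50 and 43.8% in 2 libraries, a donor event of LINC02377 fell from 34.8, 50 and 45.2% to 16.7, 15.8 and 15.4%, and a 70-nt FIRRE exon fell from 51.9 and 54.1% in 2 controls to 45.8, 35.5 and 38.1%.

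Against the same INA-6 controls, sgPOU2AF1 and sgELL2 gave like values at some events. The 22-nt LINC02820 exon printed above was at 26.3, 35.7 and 27.6% in the shared controls, 41.2, 46.3 and 46.7% with sgPOU2AF1 and 52.5, 39.5 and 42.0% with sgELL2. The 97-nt LINC00511 exon was at 45.1, 44.9 and 44.4% with sgELL2. All treated libraries were above the controls, and since the comparisons share those libraries the sharing is not a separate result.

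The interaction of cell line and guide was called for 2 of 7 events of these genes tested with sgPOU2AF1 (8.59% of all 547) and for 0 of 1 with sgELL2 (6.7% of all 194), an intron whose INA-6 values all lie under the 1% at which PSI was clipped, so that its test is void. An exon run of TMEM161B-DT was at 70.3% ± 2.24 and 75.7% ± 2.46 in MM.1S and at 40.1% ± 1.56 and 32.9% ± 1.56 in INA-6, control then sgPOU2AF1 (SD, n = 3, limma interaction adjusted p = 0.00159). A donor event tied to a transcript start of SLC12A2-DT, divergent to a sodium-potassium-chloride cotransporter gene, was at 44.8% ± 5.01 and 32.0% ± 2.86 in MM.1S and 33.1% ± 3.03 and 41.7% ± 2.98 in INA-6 (SD, n = 3, limma interaction adjusted p = 0.0013). Both moved in opposite directions in the 2 lines, while 5 of the 7 tested events moved the same way in both. Among those 5, the printed LINC00511 exon rose by 5.91 points in MM.1S and 14.0 in INA-6 (limma interaction adjusted p = 0.106). A single exon of ANKRD42-DT changed by -9.06 and -11.2 points (limma interaction adjusted p = 0.231).

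**Figure D4:**
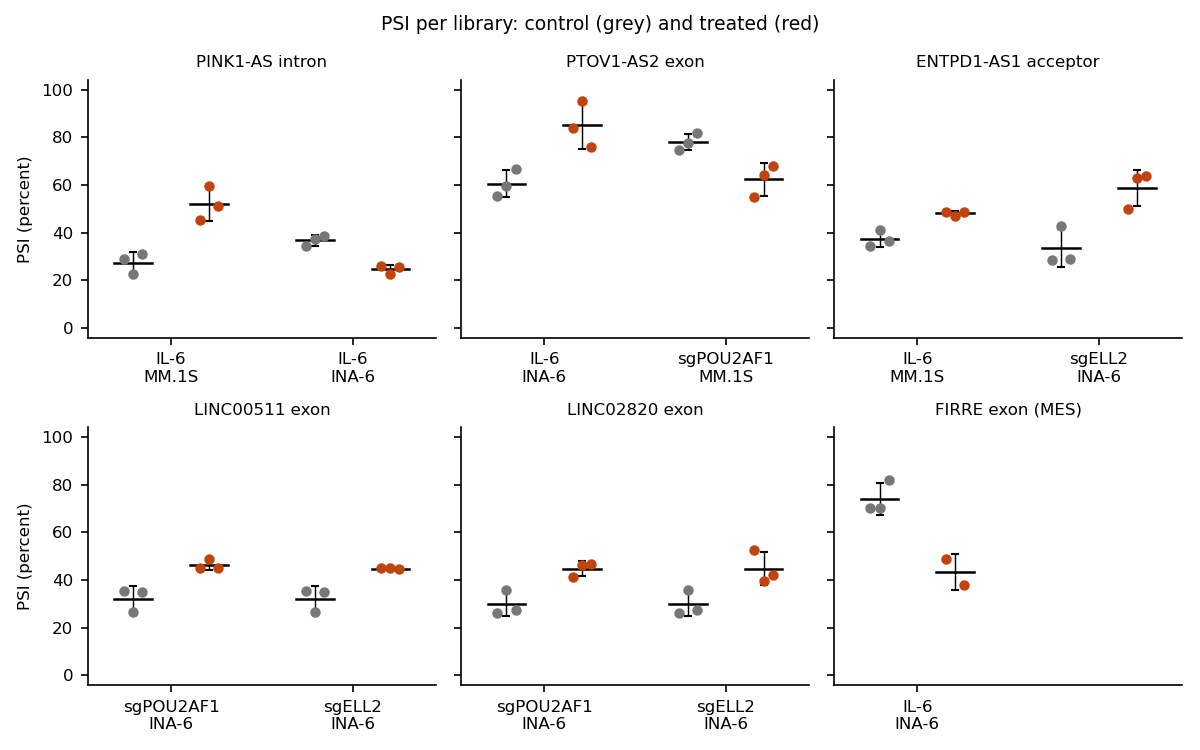
PSI (percent, y axis) of 6 events of long non-coding and antisense RNA genes in control (grey) and treated (red) libraries of comparisons with IL-6, sgPOU2AF1 or sgELL2. Points are libraries, bars means and whiskers SD. The PINK1-AS intron is higher with IL-6 in MM.1S and lower in INA-6, and the LINC02820 and LINC00511 exons are higher with both guides in INA-6, whose controls are the same libraries. The FIRRE panel reads its 66-nt exon within a run of exons (70.0, 70.2 and 81.8% without, 48.8 and 37.9% with IL-6).

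Of the 423 genes, 174 had a called event in at least 1 comparison, 111 of them in 1 only, 63 in 2 or more and 9 in 4 or more. These counts, and those of recurring events, were not made over all genes, so they are not read as particular to this part. PCBP1-AS1 and ENTPD1-AS1 were called in 6 comparisons and FMNL1-DT in 5. The 434 calls fell on 396 distinct events, 31 of which were called in 2 or more comparisons. For 12 of the 31, these comparisons share their control libraries, so that recurrence is not independent. The ENTPD1-AS1 acceptor recurred most, in 5 comparisons. Of these, sgSRSF1 and sgHNRNPL share their controls, as do sgPOU2AF1 and sgELL2 in INA-6. Besides sgSRSF1 and sgHNRNPL, it was at 34.5, 41.3 and 36.5% without and 48.6, 47.1 and 48.6% with IL-6 in MM.1S, and in INA-6 at 28.6, 42.9 and 29.2% in controls, 59.0, 52.3 and 48.1% with sgPOU2AF1 and 50, 62.8 and 63.6% with sgELL2. It was lower than its controls with sgSRSF1 and higher in the other 4 comparisons. The PTOV1-AS2 exon was called in 3, higher with IL-6 in INA-6, lower with sgPOU2AF1 in MM.1S, and with sgSRSF1 at 90.9, 100 and 93.5% against 79.4, 78.9 and 73.7% (limma adjusted p = 0.128).

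Coding partners of called antisense or divergent genes were looked up by symbol. With sgSRSF1, 36 of the called genes have a partner symbol, 23 partners had listed events and 7 were called (30.4%, against 19.0% of all other genes listed): GABPB1, MACC1, MEF2C, NUP50, ST3GAL6, TMEM161B and ZNF337. With sgHNRNPL 2 of 15 listed partners were called (13.3% against 7.16%), AP1G2 and DPH5. With IL-6, 1 of 6 was called in MM.1S (SBF2) and 1 of 7 in INA-6 (MYLK), against 18.3% and 8.93% of other genes. With sgPOU2AF1, 1 of 8 was called in MM.1S (PNISR) and 1 of 10 in INA-6 (THBS3), against 12.4% and 10.3%. With sgELL2 it was 1 of 2 in MM.1S (TRIM52) and 0 of 4 in INA-6, against 12.1% and 6.73%. No test was made on these few partners. Across all 8 comparisons, 1 called event overlapped a called event of another gene: with sgHNRNPL, an intron of AP1G2-AS1, chosen after its values were seen, went from 13.6% ± 1.9 to 26.2% ± 3.18 while the overlapping intron of AP1G2 went from 14.1% ± 7.02 to 30.9% ± 5.96 (SD, n = 3).

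A list of 30 long non-coding genes outside the naming rule, among them MIAT, TUG1 and PVT1, gave 27 called of 338 tested events with sgSRSF1 (7.99% against 5.75% of all events, 6 higher and 21 lower) and 32 of 357 with sgHNRNPL (8.96% against 1.81%, 19 higher and 13 lower). With IL-6 it gave 17 of 76 events in MM.1S (22.4% against 13.9%) and 5 of 71 in INA-6 (7.04% against 12.2%). With sgPOU2AF1, 3 of 24 were called in MM.1S (12.5% against 10.2%) and 3 of 66 in INA-6 (4.55% against 10.1%), and with sgELL2 0 of 20 in MM.1S (against 11%) and 1 of 51 in INA-6 (1.96% against 10.2%). The list thus lay below the share of all events in 4 of the 8 comparisons. The difference from the genes of the naming rule was not tested.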

How the data were processed

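RNA sequencing libraries of 2 myeloma cell lines were read from the deposited splicing workbook, 8 tables of 3 libraries against 3. Reads were aligned to GRCh38 with STAR 2.7.10b and handled with SAMtools 1.19.2, per the submitters' processing notes. Which splicing caller and annotation made the tables was not given in the sources used here. Deposited values were taken as they stand. The deposited percent spliced in values run from 0 to 100 percent per library, and the deposited score per event is the difference of group means in points. The deposited p-value column is headed as an adjusted value, but it equals the unadjusted p of Welch's test on the listed values within 1% in every table, and it was used as such. Of the tables, 2 list all events and 6 list p-values only under 0.05. Depth per event is unknown. The value headers of the INA-6 guide tables name MM.1S, and the sheets name INA-6. Across events, the control values of these tables correlated more closely with IL-6-treated INA-6 (0.995 and 0.997) than with IL-6-treated MM.1S (0.953 and 0.961).

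Events were matched between tables by coordinates, type and gene. The logit (base 2) of PSI was fitted with limma 3.58.1 (R 4.3.3) after PSI was clipped at 1 and 99%, over all events that vary, with Benjamini-Hochberg adjustment over all of them. It gave the complete comparisons, the direct contrast and the cell line interactions. Simulated data, without missing values, were used only for the fit of treated against control. The direct contrast and the interactions were not simulated. Python 3.11.15 with pandas 2.3.3, numpy 2.4.6, scipy 1.17.1 and matplotlib 3.10.9 did the rest. Exon sequences came from GENCODE release 29 transcripts. Named events are, per comparison, the 10 genes with the largest called differences, events called in 2 or more comparisons, called events of a list of well-studied genes, and called partner genes. Others are marked where named. The members and lists were chosen with earlier results of these data known. Alternatives were a 20-point minimum, complete values only, a mean PSI from 5 to 95%, overlapping introns left out, limma in place of the deposited p, another clipping, PSI in points, and each library left out in turn. Sequencing was done by one of a pair of providers per the labels, and which library went where is not stated, so that batch and the groups cannot be told apart.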

Additional observations from a re-analysis of the deposited data

Results flagged for a closer look

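The response to a treatment differed between the cell lines by limma's interaction term (INA-6 minus MM.1S, logit scale) by at least 10 points in 3 events. The PINK1-AS overlapping intron differed by -2.35 ± 0.29 SE with IL-6 (-36.5 points, adjusted p = 0.000131), being higher with IL-6 in MM.1S and lower in INA-6. With sgPOU2AF1, the TMEM161B-DT exon run that starts with a 65-nt exon differed by -0.85 ± 0.16 SE (-12.6 points, adjusted p = 0.00159), and the SLC12A2-DT donor event by 1.32 ± 0.23 SE (21.4 points, adjusted p = 0.0013). With sgELL2, a TMEM161B-DT intron also gave an adjusted p under the threshold (-0.81 ± 0.13 SE, adjusted p = 0.00163, -0.4 points), but this test is void: all INA-6 values are under the 1% at which PSI was clipped (means 0.0% and 0.698%, against 0.653% and 1.75% in MM.1S), so clipping sets the INA-6 response to 0, and the estimate turns to 1.33 with clipping at 0.1%.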

How the results depend on the processing

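No paired analysis was possible because the value columns carry no replicate numbers. With 20 points in place of 10, the called events numbered 10 and 12 with IL-6 (MM.1S, then INA-6), 7 and 12 with sgPOU2AF1, 6 and 11 with sgELL2, 52 with sgSRSF1 and 18 with sgHNRNPL. The limma rule gave 5 with sgHNRNPL. With 1 library left out in turn and the limma rule, the counts in that order ranged from 28 to 30, 51 to 55, 22 to 27, 52 to 61, 19 to 25, 24 to 28, 31 to 41 and 0 to 4, those of the 6 partial tables being adjusted over listed events only. The direct contrast ranged from 82 to 112, and the interactions (IL-6, sgPOU2AF1, sgELL2), counted by adjusted p alone, stayed at 1, 2 and 1. Of all named events with a limma p, 10 to 12 (sgSRSF1) and 0 to 1 (sgHNRNPL) passed with 1 library left out. A wider clipping (0.1% from either end) gave 15 named events with sgSRSF1. For sgHNRNPL, PSI in points gave 4 and the 5 to 95% filter 4. The sgELL2 interaction gave 0 with points and 0 with the filter. The TMEM161B-DT intron reversed to 1.33 under the other clipping, where its near-zero values are set. The IL-6 interaction of the PSMA3-AS1 exon (-0.04) ranged from -0.16 to 0.05 with a library left out: it reversed to 0.05 without 1 of the MM.1S values without IL-6, and to 0.02 and 0.02 without 1 of the INA-6 values without or with IL-6. Libraries are known only by their position among the 3 values of a group, which carries no replicate number. Other causes were not tested.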
